A study of Mus musculus with 298 samples.

Results

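The step examined here is the first week after nilotinib was stopped in a mouse model of chronic myeloid leukaemia, read as the blood transcriptome at week 11 minus that at week 10 of the same mouse. Nilotinib is a tyrosine kinase inhibitor (TKI) of the BCR-ABL kinase. The members are the TKI mice with a library at both weeks: 12 libraries of 6 mice, of 298 libraries of 20 mice in the series. The TKI cohort has 7 mice, of which mouse 514 has week 10 as its last week and no step. The same step was taken in the 5 CML mice with both weeks (10 libraries), which never received the drug, and in the 3 control mice (6 libraries). All mice were C57BL/6 animals of both sexes with the genotype tTA+/-, BCR-ABL+/-, called SCLtTA/BCR-ABL mice, in which an Scl-driven tetracycline transactivator switches on human BCR-ABL when tetracycline is removed. They were 6 to 8 weeks old when they were divided into cohorts. TKI mice lost their tetracycline water for good at week 0 and were gavaged daily with nilotinib at 50 mg/kg for 4 weeks, starting at week 6, with the transgene left on during and after treatment. CML mice were off tetracycline over the same weeks without the drug. Control mice stayed on tetracycline at 0.5 g/L. Whether the week 10 blood was drawn before or after the last dose is not stated.

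As background, BCR-ABL is a constitutively active tyrosine kinase made by fusion of BCR and ABL1, and it drives the output of granulocytes and their precursors into the blood. Nilotinib blocks its catalytic site without changing the gene, and leukaemic stem cells are known to outlast such inhibitors in part. Neutrophils fill their granules in a fixed order: primary granule enzymes are made in promyelocytes, secondary granule proteins such as lactoferrin in myelocytes, and receptors and secreted alarm proteins in the most mature cells. A bulk blood library gives shares of RNA, so that fewer cells of a type and less RNA per cell cannot be told apart.

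Each value is in TPM (transcript abundance corrected for gene length, with a fixed total in every library), so a change of an abundant RNA moves all other values. The labels give mononuclear cells as the tissue but whole blood as the source of the RNA, and the markers go against the mononuclear label. The neutrophil genes S100a8 and S100a9 reached 17138 and 23153 TPM, and haemoglobin transcripts made up to 58.2% of a CML library at weeks 10 and 11. Libraries that stand apart are given first. Haemoglobin made up 2.49%, 2.33%, 1.61% and 0.331% of TPM at week 11 in TKI mice 507, 508, 511 and 512, against 33.0%, 25.5%, 31.1% and 12.8% at week 10. It made up 24.6% and 12.1% at week 11 in TKI mice 502 and 513, against 28.4% and 22.5% at week 10. None of the 82 libraries of these 6 mice at other weeks had under 5% (lowest 6.45%). In CML mice haemoglobin ran from 34.3 to 58.2% at week 11, against 27.7 to 48.0% at week 10. All 4 low libraries are thus of week 11, and the results were repeated with 502 and 513 alone as TKI mice. The CML mice stayed in those fits and share the estimate of the spread, which 2 TKI mice could not supply by themselves. CML mouse 487 had no transgene transcript (0 TPM) at either week although its label has the transgene on, and results were repeated without it. The difference of the 2 cohorts draws on 3 sequencing batches: 4 TKI mice and 1 CML mouse in 2022_A, 2 and 2 in 2022_B, and 2 CML mice alone in 2021_E.

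The blood changed widely in the week after the drug. Of 10435 genes tested, 3442 rose (33%) and 951 fell (9.11%) in the 6 TKI mice, 42.1% in all (limma on the within-mouse change of log2(TPM + 1), Benjamini-Hochberg adjusted p of 0.05 over all genes). In the 5 CML mice limma called 0 genes over the same week, with 2809 at an unadjusted p under 0.05 and a smallest adjusted p of 0.184. In the control mice 0 of 10621 genes were called, with 167 at an unadjusted p under 0.05. The step of TKI mice minus that of CML mice, tested itself, was positive in 4868 genes (46.7%) and negative in 283 (2.71%), 49.4% in all. The direction of the calls depends on the scale. The median step over all genes was 0.24 in TKI mice and -0.33 in CML mice as deposited, and 0.02 and 0.03 after rescaling each library by a median-ratio size factor. After rescaling, 2951 genes rose (28.3%) and 2460 fell (23.6%) in TKI mice, and the difference was positive in 1978 (19%) and negative in 1651 (15.8%). Higher values made up 78.4% of the calls as deposited and 54.5% rescaled in the TKI step, and 94.5% against 54.5% in the difference. The same direction in both contrasts and on both scales was found in 2195 genes, of which 1929 were higher and 266 lower. With TKI mice 502 and 513 alone 709 genes rose (7.02%) and 615 fell (6.09%), 13.1% in all. The difference was then positive in 9.02% and negative in 1.49% of genes (10.5% in all). Rescaled, these 2 mice gave 10.7% higher and 4.32% lower (15.1% in all), and 4.42% and 1.03% in the difference (5.45%). Without CML mouse 487 the TKI step had 39.6% called (31.4% higher, 8.27% lower) and the difference 41.3% (39.2% higher, 2.05% lower). Without red cell and small RNA genes in the total the TKI step had 46.1% called (24.4% higher, 21.7% lower) and the difference 33.7% (22.2% higher, 11.5% lower). Unless a sentence says rescaled, the steps below are log2 changes as deposited, with the standard error (SE) of the fit. Counts of called genes in the lists below are to be read against the shares of all genes given here. In the TKI step these are 33% higher and 9.11% lower, and 28.3% and 23.6% rescaled. In the difference they are 46.7% and 2.71%, and 19% and 15.8% rescaled.

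**Figure D1:**
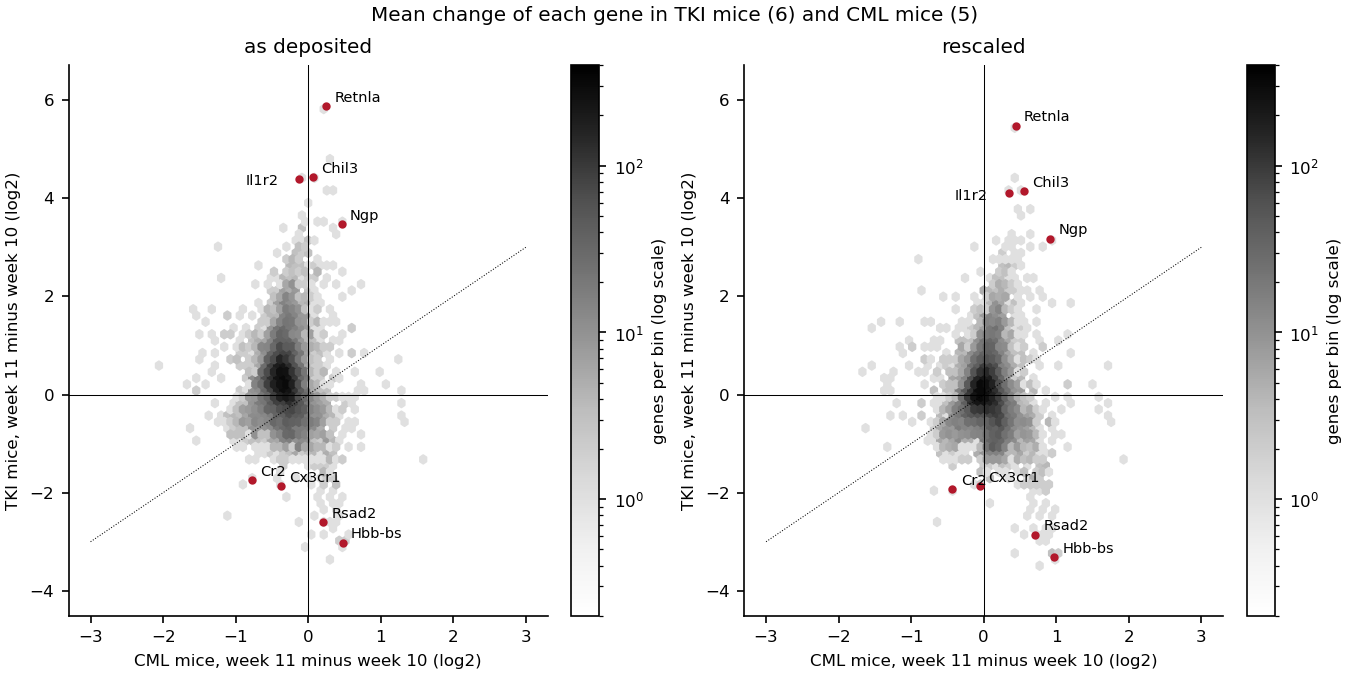
Mean log2(TPM + 1) step of the 6 TKI mice (vertical axis) against that of the 5 CML mice (horizontal axis), week 11 minus week 10, for the 10435 tested genes; left as deposited, right rescaled, shade giving the number of genes per hexagon on a log scale. Neutrophil genes such as Chil3 (4.43 in TKI mice, 0.06 in CML mice) lie far above the cloud and haemoglobin genes such as Hbb-bs (-3.02 and 0.47) far below it.

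The transgene itself was on at both weeks. The human BCR-ABL row held 7.27, 24.6, 14.7, 3.67, 10.5 and 4.90 TPM in TKI mice 502, 507, 508, 511, 512 and 513 at week 11, against 10.6, 21.0, 20.2, 8.79, 9.82 and 6.47 TPM at week 10. It held 24.3, 21.5, 0, 15.3 and 4.51 TPM in CML mice 480, 484, 487, 541 and 542 at week 11, against 12.4, 13.4, 0, 8.83 and 2.14 TPM at week 10. The weeks overlap in both cohorts. Its step was -0.34 ± 0.46 in TKI mice (SD, n = 6, lower in 4 of 6, two-sided exact sign-flip p = 0.125, where the design allows 0.03125 at the least). Rescaled, the step was -0.59 (lower in 6 of 6, exact p = 0.03125). In CML mice the step was 0.62 ± 0.36 (SD, n = 5, higher in 4 of 5, exact p = 0.125, where 0.0625 is the least possible). TKI minus CML was -0.96 (two-sided exact permutation of mouse labels, p = 0.0108) and -1.60 rescaled (exact p = 0.00216, the smallest possible). With week 9 in place of week 10 the TKI step was 0.0536 (exact p = 0.969) and the difference -0.48 (exact p = 0.223); neither passed. Within batches the TKI step was -0.15 in batch 2022_A (4 TKI mice) and -0.70 in batch 2022_B (2 TKI mice). The difference was -0.80 within 2022_A and -1.11 within 2022_B. The mouse gene Bcr, the endogenous partner whose product is a GTPase-activating protein, fell by 0.67 ± 0.19 (SE, limma adjusted p = 0.00654). Mouse Abl1, the endogenous kinase gene, had a step of 0.12 ± 0.18 (SE, limma adjusted p = 0.635), which was -0.12 (adjusted p = 0.192) rescaled.

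Several granule and secreted proteins of neutrophils were among the largest rises, which were chosen by size among called genes with the same sign in at least 5 of 6 TKI mice, so that their shared direction is part of that choice. Retnla (GRCm39 chr16:48662895-48664824, forward strand), which encodes a secreted resistin-like protein of myeloid cells, ranged from 46.3 to 246 TPM in TKI mice at week 11 (median 80.7), against 0.424 to 1.23 TPM at week 10 (median 0.626). It held 0.47, 40.9, 0, 0.241 and 0.273 TPM in CML mice 480, 484, 487, 541 and 542 at week 11, against 0.996, 10.9, 0.0388, 0.266 and 0.331 TPM at week 10. No TKI mouse overlapped between the weeks, and among CML mice 484 was high at both weeks. The step of Retnla was 5.87 ± 0.33 (SE, limma adjusted p = 3.00e-12), and 5.48 (adjusted p = 0.0521) rescaled, where it did not pass, nor did it in mice 502 and 513 alone (5.95, adjusted p = 0.107). Chil3 (chr3:106054870-106074880), a chitinase-like protein stored in myeloid granules, ranged from 1735 to 4083 TPM in TKI mice at week 11 (median 2494), against 61.6 to 330.4 TPM at week 10 (median 107). It held 88.6, 755, 17.4, 23.03 and 30.9 TPM in CML mice 480, 484, 487, 541 and 542 at week 11, against 60.1, 578, 31.8, 24.6 and 24.7 TPM at week 10. The week 11 values of all TKI mice lay above every value of the CML mice at these weeks. Its step was 4.43 ± 0.25 (SE, limma adjusted p = 2.56e-12), 4.14 (adjusted p = 0.000365) rescaled, and TKI minus CML was 4.37 ± 0.36 (SE, limma adjusted p = 2.16e-08).

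Ngp (chr9:110248815-110252086), the neutrophilic granule protein, ranged from 703 to 1558 TPM in TKI mice at week 11 (median 1202), against 41.6 to 209.5 TPM at week 10 (median 119). It held 155, 1075, 0.764, 115 and 30.7 TPM in CML mice 480, 484, 487, 541 and 542 at week 11, against 103, 1416, 0.919, 47.9 and 14.9 TPM at week 10. CML mouse 484 thus carried Ngp at the level of the TKI mice after withdrawal, at both of its weeks, while the other CML mice stayed far below. The step of Ngp was 3.47 ± 0.24 (SE, limma adjusted p = 4.70e-11) in TKI mice, and TKI minus CML was 3.01 ± 0.35 (SE, limma adjusted p = 7.00e-07). Mmp8, the neutrophil collagenase, ranged from 284 to 879 TPM in TKI mice at week 11 (median 635), against 14.6 to 133 TPM at week 10 (median 44.2), with a step of 3.61 ± 0.26 (SE, limma adjusted p = 1.09e-10). Lcn2, which encodes the iron-chelator-binding protein lipocalin-2, ranged from 938 to 2378 TPM in TKI mice at week 11 (median 1779), against 46.2 to 376 TPM at week 10 (median 160.0), with a step of 3.53 ± 0.25 (SE, limma adjusted p = 9.02e-11). Both were separated between the weeks in TKI mice. Cd177, a neutrophil surface glycoprotein, had a step of 3.49 ± 0.21 (SE, limma adjusted p = 8.37e-12) and Crispld2, which encodes a secreted lipopolysaccharide-binding protein, 4.14 ± 0.27 (SE, limma adjusted p = 2.19e-11). Bcl2l15, a BCL2-like gene, ranged from 24.2 to 51.9 TPM in TKI mice at week 11 (median 34.8), against 0.0261 to 0.765 TPM at week 10 (median 0.247), with a step of 4.78 ± 0.25 (SE, limma adjusted p = 2.29e-12). Lipg, the endothelial lipase gene, had a step of 4.22 ± 0.23 (SE, limma adjusted p = 2.56e-12). The small nucleolar RNA Snora81 had a step of 2.99 ± 0.39 (SE, limma adjusted p = 1.20e-06) and Scrg1 3.41 ± 0.18 (SE, limma adjusted p = 2.29e-12).

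**Figure D2:**
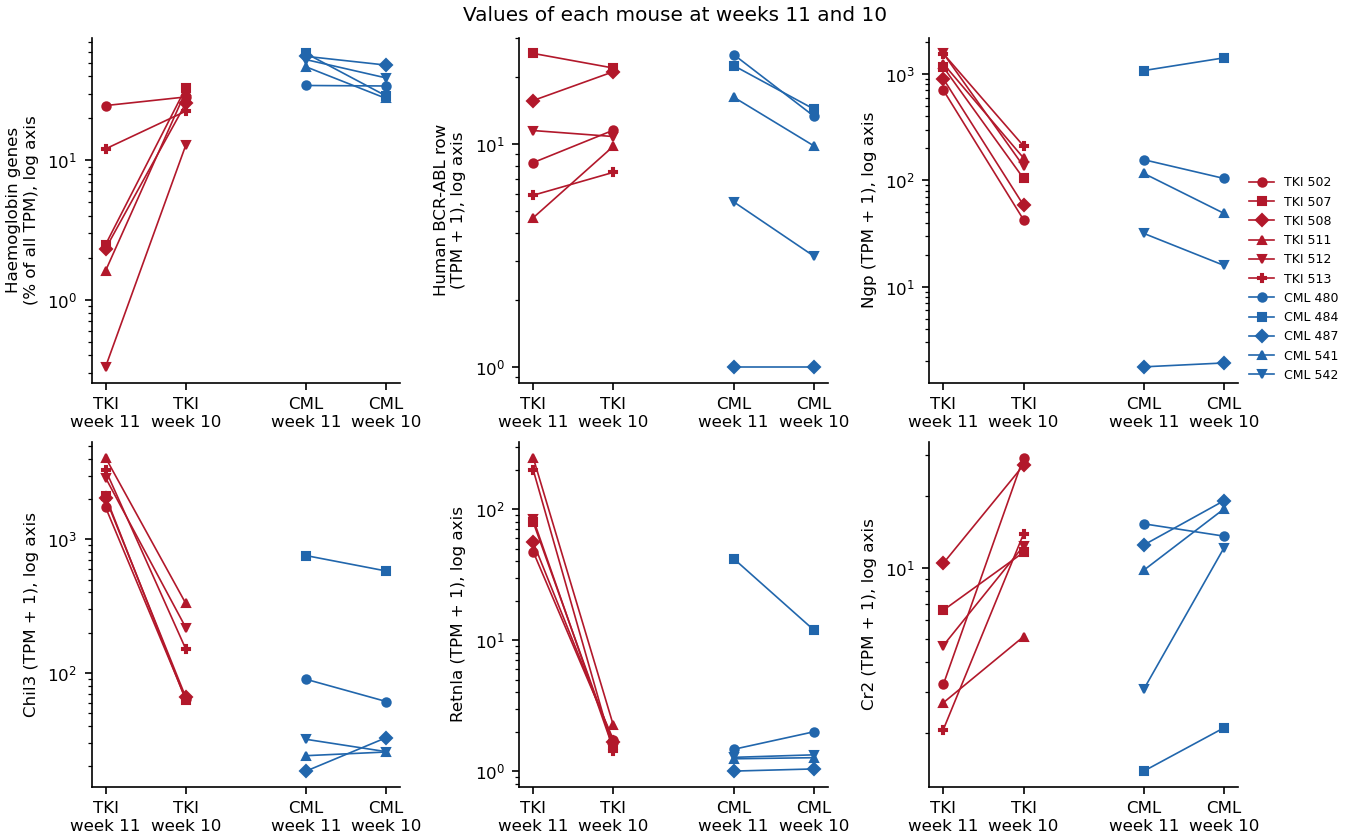
Share of haemoglobin in each library (percent of TPM) and the values (TPM) of the human BCR-ABL row, Ngp, Chil3, Retnla and Cr2, log axes; each line joins 1 mouse, TKI mice at week 11 and week 10 left of CML mice at week 11 and week 10. Chil3 sits at 1735 to 4083 TPM in TKI mice at week 11, above their week 10 range of 61.6 to 330.4 TPM, and haemoglobin falls under 5% in 4 of the 6.

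Genes of the secondary (specific) granule, made at the myelocyte stage, rose as a group. Of 20 listed and tested, 18 rose and 0 fell, with a median step of 2.52 against 0.24 over all genes, and 17 rose and 0 fell rescaled (median 2.19). TKI minus CML was higher in 19 as deposited and in 15 rescaled, and lower in 0 and 0. The summed level of the list ran from 5815 to 13438 TPM in TKI mice at week 11, against 1329 to 2973 TPM at week 10, without overlap. It ran from 469 to 5204 TPM in CML mice at week 11, against 715 to 7657 TPM at week 10. Anxa1, a glucocorticoid-induced protein of neutrophil granules, had a step of 2.97 ± 0.19 (SE, limma adjusted p = 1.77e-11) and the integrin subunit gene Itgb2l 2.96 ± 0.19 (SE, limma adjusted p = 3.20e-11). Median steps of the list in single TKI mice ran 1.99 to 3.24, and in CML mice -0.49 to 0.33. Rescaled they ran 1.17 to 2.87 in TKI mice and 0.04 to 1.20 in CML mice, with overlap. In TKI mice 502 and 513 alone 16 rose and 0 fell (median 2.11), and 16 rose and 0 fell rescaled. The difference from CML mice was then higher in 15 as deposited and in 7 rescaled, and lower in 0 and 0. Within batches the mean of the mouse medians was 2.90 in batch 2022_A (4 TKI mice) and 2.00 in batch 2022_B (2 TKI mice).

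C/EBP factors are known to drive granule genes in maturing neutrophils, and the 250 bases before the start of the leading risers are shown for that reason, from RefSeq (GRCm38.p6, an older build than the GRCm39 of the gene positions above), 5′ to 3′ along the gene. Capitals mark the letters TTGCNNAA, a C/EBP-type motif, or its reverse complement (both strands searched). Of 13 genes looked for 10 had a promoter in the table, and 5 of these hold a match.
Retnla, chr16:48842359-48842608 (forward strand): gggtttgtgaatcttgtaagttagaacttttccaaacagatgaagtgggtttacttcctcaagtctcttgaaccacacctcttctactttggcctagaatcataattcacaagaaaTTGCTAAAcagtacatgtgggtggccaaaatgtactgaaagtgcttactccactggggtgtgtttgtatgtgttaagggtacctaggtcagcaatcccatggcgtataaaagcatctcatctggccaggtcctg
Bcl2l15, chr3:103832446-103832695 (forward strand): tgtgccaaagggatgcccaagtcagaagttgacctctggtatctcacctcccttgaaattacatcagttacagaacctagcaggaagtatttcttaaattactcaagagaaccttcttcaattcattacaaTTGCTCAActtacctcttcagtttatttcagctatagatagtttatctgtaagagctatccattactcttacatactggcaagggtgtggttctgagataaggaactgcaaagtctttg
Mmp8, chr9:7558179-7558428 (forward strand): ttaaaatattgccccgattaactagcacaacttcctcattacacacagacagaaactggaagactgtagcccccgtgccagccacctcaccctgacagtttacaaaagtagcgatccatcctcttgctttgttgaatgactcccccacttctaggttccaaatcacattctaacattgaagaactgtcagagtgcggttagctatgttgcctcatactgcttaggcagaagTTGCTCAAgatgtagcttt
Lcn2, chr2:32387740-32387989 (reverse strand): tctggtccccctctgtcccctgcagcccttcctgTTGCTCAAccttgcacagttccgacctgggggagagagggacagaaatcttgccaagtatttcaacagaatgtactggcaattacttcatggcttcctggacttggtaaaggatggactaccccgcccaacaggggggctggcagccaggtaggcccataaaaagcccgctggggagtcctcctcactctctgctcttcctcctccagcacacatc
Ngp, chr9:110419558-110419807 (forward strand): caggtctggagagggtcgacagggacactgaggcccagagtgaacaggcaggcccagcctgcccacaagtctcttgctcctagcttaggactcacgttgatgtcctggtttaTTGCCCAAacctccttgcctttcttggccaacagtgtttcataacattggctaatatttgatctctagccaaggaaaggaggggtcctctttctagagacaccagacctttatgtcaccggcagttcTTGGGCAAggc
Chil3, chr3:106167565-106167814 (reverse strand): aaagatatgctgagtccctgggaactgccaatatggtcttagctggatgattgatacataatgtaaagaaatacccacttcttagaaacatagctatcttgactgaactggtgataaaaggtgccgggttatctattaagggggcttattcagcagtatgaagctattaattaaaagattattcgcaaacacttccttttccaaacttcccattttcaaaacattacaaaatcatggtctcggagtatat
Chil3 is shown as one without the letters in this window. The same letters occur in 7.81% of the promoters of 7724 tested genes and in 9.55% of 27025 promoters in all. The genes shown were chosen by their change, so the share among them is a description of these promoters and no test. The letters TTCNNNGAA, a STAT-type motif, were searched too and are not marked. Among the 10 they occur in Chil3, Il1r2 and Cstdc4, and they occur in 6.1% of the promoters of tested genes. Of other neutrophil genes searched, Ltf and S100a9 hold the C/EBP-type letters, and Camp and S100a8 do not.

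Genes of mature neutrophils moved with the granule genes. Of 25 tested, 24 rose and 0 fell (median step 2.45), and 24 rose and 0 fell rescaled (median 2.16). The difference from CML mice was higher in 24 as deposited and 23 rescaled. The summed level ran from 18924 to 52986 TPM in TKI mice at week 11, against 2804 to 7811 TPM at week 10. It ran from 1144 to 16919.6 TPM in CML mice at week 11, against 1366 to 26644 TPM at week 10. TKI mice did not overlap between the weeks, while the range of CML mice was wide at both. Il1r2 (chr1:40113239-40164391), the decoy receptor for interleukin 1, ranged from 337 to 625 TPM in TKI mice at week 11 (median 459.6), against 9.09 to 54.8 TPM at week 10 (median 19.0). It held 28.7, 112, 9.76, 7.79 and 8.02 TPM in CML mice 480, 484, 487, 541 and 542 at week 11, against 26.3, 124, 11.7, 10.8 and 7.57 TPM at week 10. Its week 11 values exceeded every CML value of these weeks, with a step of 4.40 ± 0.24 (SE, limma adjusted p = 2.29e-12) and TKI minus CML of 4.52 ± 0.35 (SE, limma adjusted p = 1.20e-08). Cd14, the lipopolysaccharide co-receptor, ranged from 121 to 299 TPM in TKI mice at week 11 (median 181), against 5.56 to 20.1 TPM at week 10 (median 11.7), with a step of 3.91 ± 0.21 (SE, limma adjusted p = 2.29e-12).

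S100a8, one chain of the alarm protein calprotectin, ranged from 5558 to 17138 TPM in TKI mice at week 11 (median 10040.5), against 657 to 2300.3 TPM at week 10 (median 1211), with a step of 2.95 ± 0.21 (SE, limma adjusted p = 1.09e-10). S100a9, its partner chain, had a step of 2.81 ± 0.20 (SE, limma adjusted p = 1.09e-10). The surface marker Ly6g had a step of 2.68 ± 0.26 (SE, limma adjusted p = 1.05e-08) and the chemokine receptor gene Cxcr2, which guides neutrophils out of the marrow, 2.78 ± 0.20 (SE, limma adjusted p = 1.12e-10). Wfdc21, a small secreted whey acidic protein, had a step of 3.38 ± 0.20 (SE, limma adjusted p = 8.37e-12). None of S100a8, S100a9, Ly6g and Cxcr2 was at 0 in a TKI or CML library of weeks 10 and 11. In TKI mice 502 and 513 alone 22 rose and 0 fell (median 2.16; rescaled 22 and 0). Within batches the mean of the mouse medians was 2.67 in batch 2022_A (4 TKI mice) and 1.92 in batch 2022_B (2 TKI mice). TKI minus CML was 3.25 in 2022_A and 1.98 in 2022_B, and 2021_E holds no TKI mouse.

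The stefin A cluster on chromosome 16, cysteine protease inhibitors of mouse neutrophils, and acute phase genes behaved alike: 8 of 8 rose and 0 fell (median step 2.68), with the same counts rescaled (median 2.36). TKI minus CML was higher in 7 on both scales. Cstdc4 had a step of 3.45 ± 0.23 (SE, limma adjusted p = 3.77e-11), Stfa2l1 3.40 ± 0.23 (SE, limma adjusted p = 4.25e-11) and Stfa2 3.42 ± 0.26 (SE, limma adjusted p = 3.05e-10). Their copies are near-identical, and reads may be split between them, so the value of any single copy is uncertain. CML mouse 484 had a list median of 1.06, against -0.18 to 0.12 in the other 4. Rescaled, list medians ran 1.28 to 3.25 in TKI mice and -0.06 to 1.62 in CML mice, with overlap.

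Primary granule and precursor genes were mostly too low to test. Only 5 of 14 listed passed the filter of 1 TPM, of which 3 rose and 0 fell. Rescaled, 3 rose and 1 fell, and TKI minus CML was higher in 3 as deposited and in 3 rescaled, with 2 lower. With mice 502 and 513 alone 1 rose and 1 fell, and 2 rose and 1 fell rescaled. Cebpa, a master factor of granulocyte commitment, had a step of 1.67 ± 0.18 (SE, limma adjusted p = 6.29e-08), Serpinb1a, an inhibitor of neutrophil serine proteases, 1.22 ± 0.19 (SE, limma adjusted p = 1.89e-05) and Prtn3, which encodes proteinase 3, 1.36 ± 0.27 (SE, limma adjusted p = 0.000345). Mpo, the myeloperoxidase gene, was low: it ranged from 0.380 to 2.15 TPM in TKI mice at week 11 (median 1.01), against 0.0678 to 0.504 TPM at week 10 (median 0.152). Elane, the neutrophil elastase gene, ranged from 0.549 to 2.99 TPM in TKI mice at week 11 (median 1.20), against 0.0896 to 1.05 TPM at week 10 (median 0.409). Neither was tested. The receptor genes Kit and Flt3 were as low. Kit ranged from 1.16 to 3.52 TPM in TKI mice at week 11 (median 2.62), against 0.173 to 0.305 TPM at week 10 (median 0.253), and Flt3 from 1.10 to 3.46 TPM in TKI mice at week 11 (median 2.06), against 0.322 to 0.631 TPM at week 10 (median 0.547). Both were separated between the weeks in TKI mice without having been tested, since a mean of 1 TPM was required. Cd34, a progenitor marker that was tested, had a step of -0.04 ± 0.21 (SE, limma adjusted p = 0.887) and of -0.31 rescaled (adjusted p = 0.35).

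**Figure D3:**
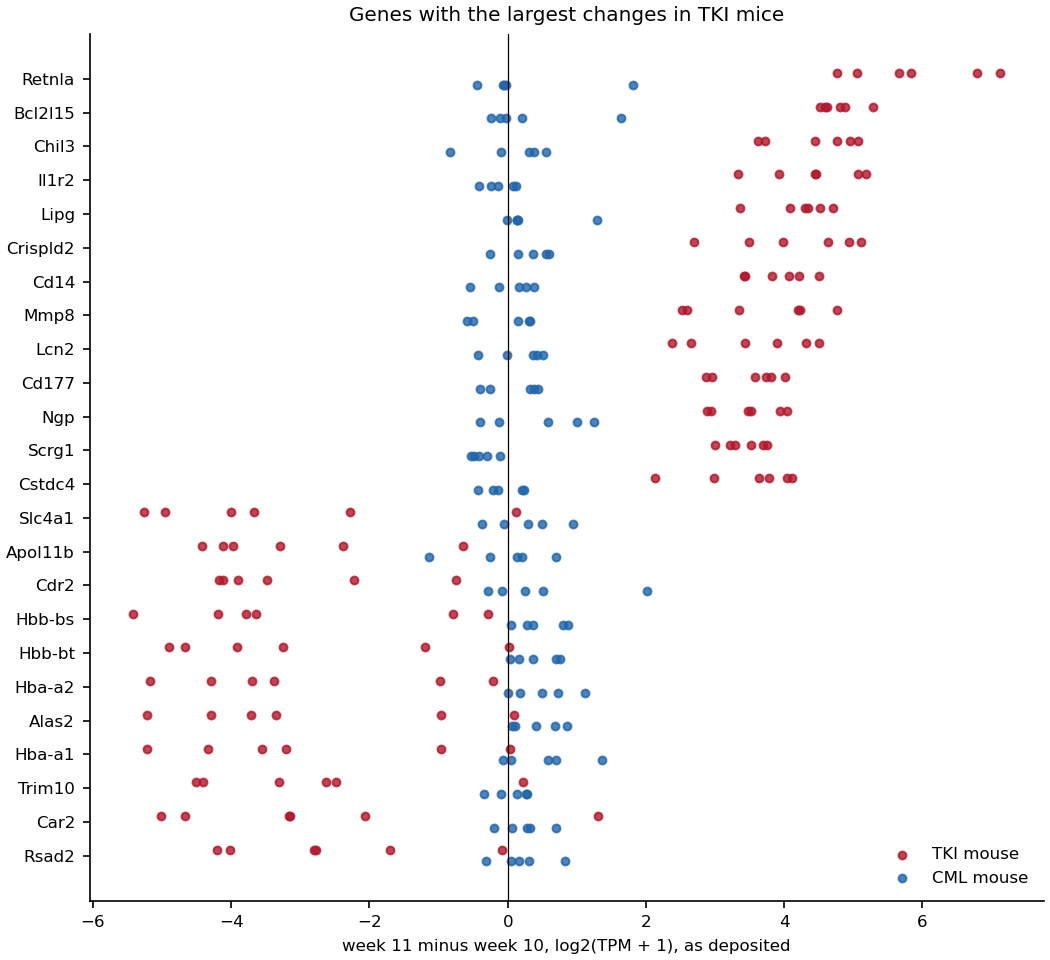
Within-mouse steps of log2(TPM + 1), week 11 minus week 10 as deposited, for the genes with the largest rises and falls. Each dot is 1 mouse, with TKI mice above CML mice. The rises are present in 6 of 6 TKI mice. The falls of haemoglobin genes are smaller in mice 502 and 513: the step of Hbb-bs was -0.29 and -0.79 there and -5.42 in the mouse with the largest fall. Of the 10 largest falls, 4 passed as deposited in mice 502 and 513 alone.

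Genes of interleukin 1 signalling and the inflammasome, the complex that matures interleukin 1, rose in 15 of 19 with 0 falling (median step 1.02), and in 13 rescaled (median 0.74). The difference from CML mice was higher in 14 as deposited and in 10 rescaled. Il1rn, the interleukin 1 receptor antagonist, ranged from 25.5 to 97.2 TPM in TKI mice at week 11 (median 60.3), against 3.64 to 20.3 TPM at week 10 (median 8.73), with a step of 2.42 ± 0.23 (SE, limma adjusted p = 7.22e-09). Nlrp3, the inflammasome sensor, had a step of 1.71 ± 0.17 (SE, limma adjusted p = 2.77e-08) and Tlr4, the lipopolysaccharide receptor, 1.70 ± 0.18 (SE, limma adjusted p = 7.64e-08). With the decoy receptor Il1r2 above, members that restrain interleukin 1 and members that promote it were both among those that rose. Il1r2 is also in the mature neutrophil list. Immediate early genes, transcribed within minutes of a stimulus, rose in 13 of 20 with 0 falling (median step 1.17). Rescaled, 13 rose and 1 fell (median 0.91). Ier3 had a step of 3.02 ± 0.19 (SE, limma adjusted p = 1.49e-11), the phosphatase gene Dusp1 2.23 ± 0.17 (SE, limma adjusted p = 3.15e-10), and the AP-1 subunit genes Junb and Jun 1.70 ± 0.17 (SE, limma adjusted p = 2.28e-08) and 1.82 ± 0.20 (SE, limma adjusted p = 6.38e-08). For mice 502 and 513 alone 9 of the interleukin 1 list and 9 of the immediate early list rose, and 0 and 0 fell.

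BCR-ABL is known to phosphorylate STAT5, and targets of that factor were therefore listed. Of 16 tested, 9 rose and 3 fell (median step 0.64), and 8 rose and 5 fell rescaled (median 0.42). TKI minus CML was higher in 9 and lower in 2, against 46.7% and 2.71% of all genes. Rescaled it was higher in 5 and lower in 4, so the list split between directions. Cish, a feedback inhibitor of cytokine receptors, ranged from 2.07 to 10.5 TPM in TKI mice at week 11 (median 6.37), against 1.06 to 2.18 TPM at week 10 (median 1.38), with a step of 1.46 ± 0.19 (SE, limma adjusted p = 8.92e-07). Socs3, another feedback inhibitor, had a step of 1.58 ± 0.17 (SE, limma adjusted p = 9.81e-08), the cytokine gene Osm 2.05 ± 0.20 (SE, limma adjusted p = 1.92e-08) and Id1, an inhibitor of helix-loop-helix factors, 3.13 ± 0.19 (SE, limma adjusted p = 1.22e-11). Bcl2l1, an anti-apoptotic target that is also abundant in reticulocytes, fell (-0.89), as did the cyclin genes Ccnd1 (-1.02) and Ccnd2 (-0.47). Among 15 genes of the BCL2 family, which sets the threshold for apoptosis, 9 rose and 1 fell (median step 0.49), and 7 rose and 2 fell rescaled. The difference of this list from CML mice was higher in 9 and lower in 1 as deposited. Rescaled it was higher in 4 and lower in 2, against 19% and 15.8% of all genes, shares near that background. Mcl1, on which neutrophils depend for survival, ranged from 149.8 to 292 TPM in TKI mice at week 11 (median 226), against 65.2 to 87.5 TPM at week 10 (median 80.7), with a step of 1.47 ± 0.18 (SE, limma adjusted p = 5.30e-07). Bcl2a1a had a step of 1.73 ± 0.19 (SE, limma adjusted p = 1.11e-07) and its near copy Bcl2a1b 1.10 ± 0.19 (SE, limma adjusted p = 8.23e-05), which share sequence. The pro-apoptotic gene Bad had a step of 0.92 ± 0.16 (SE, limma adjusted p = 7.61e-05).

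Of 15 genes of classical (inflammatory) monocytes, 5 rose and 1 fell (median step 0.33), against 33% and 9.11% of all genes, a share of rises near that background, and rescaled 4 rose and 1 fell (median 0.05). One of those that rose, Chil3, is also a granule gene. Ly6c2, the surface marker of the subset, ranged from 70.3 to 220.0 TPM in TKI mice at week 11 (median 184), against 39.5 to 107 TPM at week 10 (median 69.7), with a step of 1.25 ± 0.19 (SE, limma adjusted p = 1.06e-05), and the fibronectin gene Fn1 had 1.32 ± 0.24 (SE, limma adjusted p = 0.000137). The other defining markers, Ccr2 and Csf1r, had steps of -0.04 ± 0.29 (SE, limma adjusted p = 0.931) and 0.28 ± 0.25 (SE, limma adjusted p = 0.373). Of 11 genes of patrolling monocytes, 1 rose and 5 fell (median step -0.45), and rescaled 1 rose and 6 fell. No test compared these lists. Cx3cr1, the fractalkine receptor that marks them, ranged from 0.157 to 0.835 TPM in TKI mice at week 11 (median 0.367), against 1.79 to 10.3 TPM at week 10 (median 3.85), without overlap. Its step was -1.87 ± 0.41 (SE, limma adjusted p = 0.000845), and TKI minus CML was -1.49 ± 0.61 (SE, limma adjusted p = 0.0452). Ace, the angiotensin-converting enzyme of these cells, had a step of -1.64 ± 0.39 (SE, limma adjusted p = 0.00182). Nr4a1 and Treml4 had 0.30 ± 0.22 (SE, limma adjusted p = 0.287) and -0.45 ± 0.23 (SE, limma adjusted p = 0.114). Cd36, which reticulocytes and platelets also carry, had -2.18 ± 0.43 (SE, limma adjusted p = 0.000315).

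Eosinophil genes rose in 5 of 5 tested (median step 0.94), 4 of them rescaled. In the difference from CML mice 4 were higher as deposited and 2 rescaled. Siglecf, the defining lectin, ranged from 1.23 to 3.22 TPM in TKI mice at week 11 (median 2.42), against 0.665 to 1.26 TPM at week 10 (median 0.945), with a step of 0.73 ± 0.16 (SE, limma adjusted p = 0.000935). Prg2, the major basic protein, had a step of 1.29 ± 0.21 (SE, limma adjusted p = 3.58e-05), and the ribonuclease gene Ear6 1.98 ± 0.19 (SE, limma adjusted p = 1.40e-08). Levels were low throughout: the list summed from 16.3 to 59.9 TPM in TKI mice at week 11, against 9.45 to 35.0 TPM at week 10, with overlap. With mice 502 and 513 alone 1 rose, and 2 rescaled. Prg2 and Siglecf were under the filter of 1 TPM in that fit and were not tested. Of 16 basophil and mast cell genes 4 rose and 2 fell (median step -0.04), against 33% and 9.11% of all genes, and 4 rose and 2 fell rescaled. Neither share stood far from that background as deposited. The difference from CML mice was higher in 4 and lower in 2 as deposited, and higher in 4 and lower in 7 rescaled. Those that rose were Csf1 (2.49), Il18rap (2.38), Hdc (2.19) and Osm (2.05), which neutrophils and other myeloid cells also make. The defining basophil proteases Mcpt8 and Prss34 had steps of -0.06 ± 0.26 (SE, limma adjusted p = 0.882) and -0.34 ± 0.25 (SE, limma adjusted p = 0.264). Their TKI minus CML difference passed rescaled, at -1.34 (limma adjusted p = 0.0234) and -1.48 (adjusted p = 0.0141), and not as deposited (-0.68, adjusted p = 0.14, and -0.85, adjusted p = 0.0561). The CML side was uneven: the rescaled list median was 1.98 in CML mouse 484, against 0.08 to 0.50 in mice 480, 487, 541 and 542.

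Interferon-induced genes did not move as a block. Of 33 tested, 7 rose and 8 fell (median step -0.14), against 33% and 9.11% of all genes. Rescaled, 4 rose and 15 fell (median -0.38), against 28.3% and 23.6%. The difference from CML mice was higher in 8 and lower in 6 as deposited, and rescaled in 2 and 13. Rsad2, which encodes the antiviral enzyme viperin, ranged from 8.96 to 183 TPM in TKI mice at week 11 (median 20.01), against 68.6 to 211 TPM at week 10 (median 194), with a step of -2.60 ± 0.55 (SE, limma adjusted p = 0.000642). It was lower in 6 of 6 TKI mice. Ifit1, which binds viral RNA, had a step of -1.22 ± 0.24 (SE, limma adjusted p = 0.000346), the GTPase gene Igtp -1.32 ± 0.24 (SE, limma adjusted p = 0.000112) and the ubiquitin-like modifier Isg15 -1.49 ± 0.32 (SE, limma adjusted p = 0.000689). In the other direction the Schlafen gene Slfn1 had a step of 2.48 ± 0.19 (SE, limma adjusted p = 2.94e-10) and Oasl2, an oligoadenylate synthase-like gene, 1.36 ± 0.26 (SE, limma adjusted p = 0.00022). With mice 502 and 513 as the only TKI mice, 1 rose and 12 fell. The step of Rsad2 was -0.09 and -1.71 in mice 502 and 513, against -4.21 to -2.77 in the other 4. The list median went the other way as deposited, at -0.90 and -0.64 in mice 502 and 513, against 0.07 to 0.33 in the other 4. Rescaled it was -0.55 and -0.59, against -0.78 to 0.00346.

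Haemoglobin and other red cell genes were among the largest falls, and their falls were large in 4 of the 6 TKI mice. Hbb-bs, a beta globin gene, held 119468, 11083, 9181, 7849, 1358 and 59259.7 TPM in TKI mice 502, 507, 508, 511, 512 and 513 at week 11, against 146145, 152676, 114446, 142774, 58281 and 102271 TPM at week 10. The fall was large in mice 507, 508, 511 and 512 (steps of -3.78, -3.64, -4.18 and -5.42) and small in 502 and 513 (-0.29 and -0.79). Its mean step was -3.02 ± 0.68 (SE, limma adjusted p = 0.00106), and TKI minus CML was -3.49 ± 1 (SE, limma adjusted p = 0.00747). The fit shares its spread between the cohorts, while mouse medians of the haemoglobin list had an SD of 1.85 in TKI and 0.31 in CML mice. The SE of red cell genes may therefore understate the spread between TKI mice. Alas2, the first enzyme of haem synthesis in red cell precursors, held 1585, 117, 134, 81.3, 18.6 and 636 TPM at week 11, against 1484, 1548, 1375, 1614, 727 and 1241 TPM at week 10. The same 4 mice were low, and its step was -2.91 ± 0.65 (SE, limma adjusted p = 0.00103). Slc4a1, the band 3 anion exchanger, had a step of -3.34 ± 0.97 (SE, limma adjusted p = 0.0079), which did not pass rescaled (-3.51 (adjusted p = 0.0662)). Of 7 haemoglobin genes 0 rose and 6 fell (median step -2.88), and of 31 other red cell and reticulocyte genes 1 rose and 24 fell (median -0.89). In the difference from CML mice 6 and 21 were lower. In TKI mice 502 and 513 alone 2 haemoglobin and 3 red cell genes fell as deposited, and 0 and 0 rescaled. Of the 10 largest falls 4 passed there as deposited: Slc4a1 (-1.08), Trim10 (-1.21), Cdr2 (-1.49) and Apol11b (-1.52). Of the 10 largest rescaled falls 0 passed there. The red cell list median was 0.11 in mouse 502 and -0.89 in mouse 513, against -1.46 to -1.12 in mice 507, 508, 511 and 512.

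Among the other red cell genes, Epb41, a membrane skeleton protein, had a step of -2.00 ± 0.36 (SE, limma adjusted p = 0.000114), Bpgm, which sets the oxygen affinity of haemoglobin, -2.77 ± 0.61 (SE, limma adjusted p = 0.000909), Car2, a carbonic anhydrase, -2.79 ± 0.70 (SE, limma adjusted p = 0.00262) and Ube2l6 -2.51 ± 0.48 (SE, limma adjusted p = 0.000196). Cdr2 had a step of -3.11 ± 0.67 (SE, limma adjusted p = 0.000753) and Fam220a -2.62 ± 0.49 (SE, limma adjusted p = 0.000149), both lower in 6 of 6 mice. Trim10, a red cell precursor gene, had a step of -2.85 ± 0.74 (SE, limma adjusted p = 0.00368) and Apol11b -3.14 ± 0.997 (SE, limma adjusted p = 0.0144), which passed neither rescaled nor in the difference. Hba-a1 and Hba-a2, like Hbb-bs and Hbb-bt, are near-identical and share reads. The summed level of the red cell list ran from 342 to 5449 TPM in TKI mice at week 11, against 2540.0 to 5525 TPM at week 10, and from 6439.6 to 9377 TPM in CML mice at week 11, against 4224 to 7227 TPM at week 10. The haemoglobin list had a median step from -4.91 to -0.21 in single TKI mice and from 0.04 to 0.73 in CML mice. The platelet, lymphoid and interferon falls of this step came in the same week. The part of this loss in them was not tested beyond the values given for mice 502 and 513. As deposited, B cell list medians were -1.81 and -1.43 in mice 502 and 513. In mice 507, 508, 511 and 512 they ran from -0.55 to 0.01. MHC class II medians were -1.51 and -1.07 in 502 and 513, against -0.32 to 0.16 in the others. Platelet medians were -0.50 and -1.13, against -1.49 to -0.19. Rescaled, B cell medians were -1.33 and -1.37, against -0.98 to -0.44.

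Platelet and megakaryocyte genes were lower after withdrawal: of 22 tested, 0 rose and 15 fell (median step -0.68), and 0 rose and 20 fell rescaled (median -0.97). In the difference from CML mice limma called 0 as deposited (0 at an unadjusted p under 0.05) and 9 lower rescaled. CML mice had a median step of -0.41. The summed level ran from 8185 to 16556 TPM in TKI mice at week 11, against 14892 to 25092 TPM at week 10. It ran from 1101 to 14791 TPM in CML mice at week 11, against 3589.8 to 13727 TPM at week 10. Gp5, part of the von Willebrand factor receptor, had a step of -0.91 ± 0.22 (SE, limma adjusted p = 0.00178), the platelet tubulin gene Tubb1 -0.92 ± 0.24 (SE, limma adjusted p = 0.00417) and Thbs1, which encodes thrombospondin-1, -0.77 ± 0.22 (SE, limma adjusted p = 0.00792). Of the defining markers, Ppbp (-0.88 ± 0.29 (SE, limma adjusted p = 0.0164)) and the integrin gene Itga2b (-0.66 ± 0.23 (SE, limma adjusted p = 0.0255)) passed and Pf4 (-0.30 ± 0.20 (SE, limma adjusted p = 0.231)) did not. With mice 502 and 513 alone 2 fell, and 0 rescaled (0 at an unadjusted p under 0.05). Within batches the TKI mean was -0.61 in batch 2022_A (4 TKI mice) and -0.81 in batch 2022_B (2 TKI mice), and TKI minus CML was 1.11 and -0.53, of opposite sign.

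Some lymphocyte genes fell in TKI mice, most of them when rescaled. Of 20 B cell genes 0 rose and 6 fell (median step -0.70), and 0 rose and 18 fell rescaled (median -0.96). CML mice had a median of -0.997, with 17 lower at an unadjusted p under 0.05 and 0 by limma after adjustment. The list median of TKI minus CML was 0.32 as deposited and -0.34 rescaled, so its direction turned with the scale. limma called 0 genes in that difference as deposited (1 at an unadjusted p under 0.05) and 1 rescaled. Cr2, the complement receptor of mature B cells, ranged from 1.07 to 9.44 TPM in TKI mice at week 11 (median 2.95), against 4.12 to 28.1 TPM at week 10 (median 12.1), with a step of -1.74 ± 0.51 (SE, limma adjusted p = 0.00838). Cd79a, which encodes a chain of the B cell receptor, had a step of -0.59 ± 0.30 (SE, limma adjusted p = 0.122). Of 11 MHC class II genes 0 rose and 2 fell, and 0 rose and 11 fell rescaled, with a median of -0.40 in TKI and -1.02 in CML mice as deposited.

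Of 24 T cell genes 0 rose and 5 fell (median step -0.29), and 0 rose and 19 fell rescaled (median -0.56). TKI minus CML was called in 0 as deposited (1 at an unadjusted p under 0.05 in limma) and lower in 16 rescaled. Cd28, the co-stimulatory receptor, had a step of -0.94 ± 0.22 (SE, limma adjusted p = 0.00154) and Cd4 -0.68 ± 0.21 (SE, limma adjusted p = 0.0122), while Cd3e, a chain of the T cell receptor complex, had -0.19 ± 0.20 (SE, limma adjusted p = 0.469). NK cell and cytotoxic genes were lower where they changed: of 14 tested, 0 rose and 8 fell (median step -0.50), 0 rose and 13 fell rescaled, and TKI minus CML was lower in 2 as deposited and 13 rescaled. Ncr1, the activating receptor that defines NK cells, ranged from 0.316 to 2.69 TPM in TKI mice at week 11 (median 0.983), against 1.67 to 5.78 TPM at week 10 (median 4.16). Its step was -1.20 ± 0.25 (SE, limma adjusted p = 0.000489), and it was lower in 6 of 6 mice. S1pr5, which guides NK cells out of the marrow, had a step of -0.97 ± 0.21 (SE, limma adjusted p = 0.000787). In TKI mice 502 and 513 alone 12 NK genes, 9 T cell genes and 4 B cell genes fell.

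**Figure D4:**
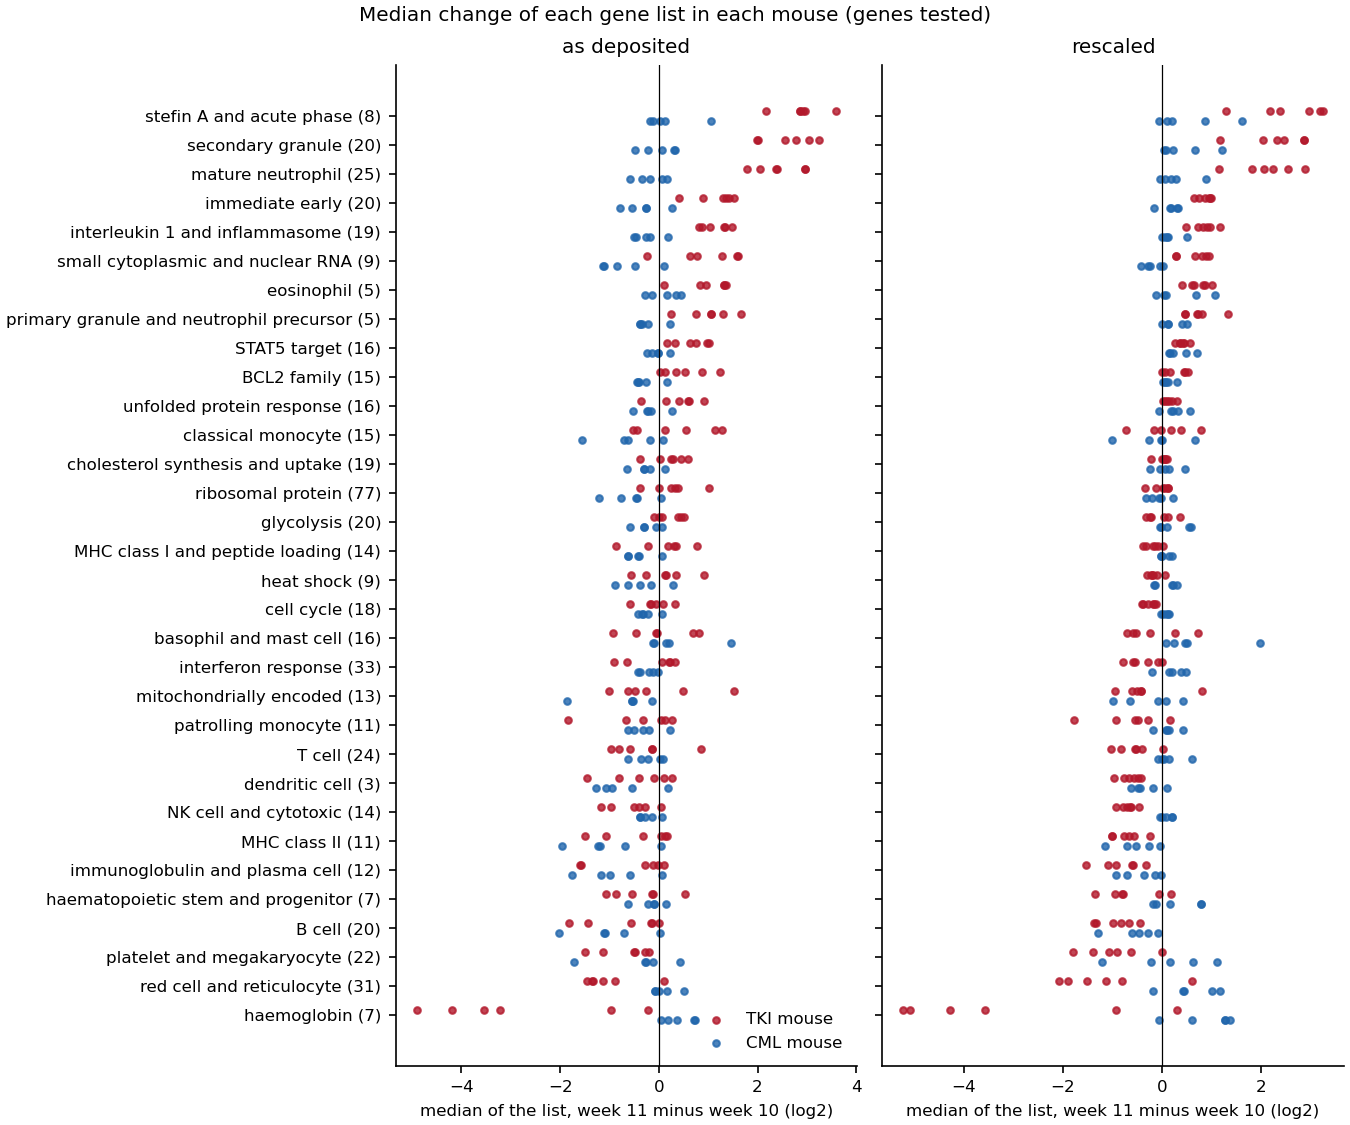
Median log2 step of each gene list in single mice, week 11 minus week 10; left as deposited, right rescaled, TKI mice above CML mice within a list. The neutrophil lists lie above 0 in 6 of 6 TKI mice on both panels (mature neutrophil 1.79 to 2.95 as deposited), while the lymphoid lists of TKI and CML mice overlap as deposited. On the rescaled panel the secondary granule, primary granule and stefin A lists of TKI and CML mice overlap as well.

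The remaining lists are given by their counts, to be read against 33% higher and 9.11% lower over all genes as deposited and 28.3% and 23.6% rescaled. The shares of rises among glycolysis and cholesterol genes lay near or below that background, and their members are named by the lowest p. Among glycolysis genes 8 rose and 2 fell of 20 (7 and 6 rescaled). The myeloid hexokinase gene Hk3 had a step of 2.04 ± 0.21 (SE, limma adjusted p = 2.56e-08), Gpi1, which encodes glucose-6-phosphate isomerase, 1.52 ± 0.17 (SE, limma adjusted p = 1.07e-07) and the glucose transporter gene Slc2a1 1.53 ± 0.18 (SE, limma adjusted p = 4.15e-07). Among genes of cholesterol synthesis and uptake 5 rose and 1 fell of 19 (3 and 4 rescaled). Of the enzymes of that pathway Fdps had a step of 1.42 ± 0.17 (SE, limma adjusted p = 2.55e-07) and Sc5d 1.51 ± 0.18 (SE, limma adjusted p = 3.26e-07). Among genes of the unfolded protein response 8 rose and 0 fell of 16 (3 and 0 rescaled), led by the secretory pathway factor Xbp1 with 2.19 ± 0.19 (SE, limma adjusted p = 1.65e-09). The call of ribosomal protein genes turned on the scale: 6 rose and 0 fell of 77 (4 and 2 rescaled), but TKI minus CML was higher in 65 as deposited and in 3 rescaled, and the CML median was -0.57. Small cytoplasmic and nuclear RNAs gave 6 rose and 0 fell of 9 (6 and 0 rescaled), with the RNase P RNA Rpph1 at 1.20 ± 0.18 (SE, limma adjusted p = 7.56e-06). Mitochondrially encoded genes had 0 calls by limma as deposited and 0 at an unadjusted p under 0.05. Rescaled, 1 fell (4 lower at an unadjusted p under 0.05), and in the difference 4 were higher at an unadjusted p under 0.05 as deposited, with 0 called.

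Cell cycle genes were lower where they changed: 0 rose and 4 fell of 18 (0 and 8 rescaled). Nusap1, a spindle protein, had a step of -1.77 ± 0.32 (SE, limma adjusted p = 0.000122) and Ube2c, the ubiquitin-conjugating enzyme of mitotic exit, -1.52 ± 0.32 (SE, limma adjusted p = 0.000478). Ube2c was lower in 5 of 6 mice and Nusap1 in 6 of 6. In TKI mice 502 and 513 alone 0 rose and 1 fell, and 0 and 0 rescaled. There Nusap1 had a step of -0.93 (limma adjusted p = 0.0246) and Ube2c -0.23 (adjusted p = 0.618). Rescaled these were -0.66 (adjusted p = 0.313) and 0.03 (adjusted p = 0.978). The part of the haemoglobin loss in these falls was not tested. Among stem and progenitor genes 1 rose and 3 fell of 7 (1 and 4 rescaled). Spi1, the myeloid master factor PU.1, had a step of 2.03 ± 0.18 (SE, limma adjusted p = 4.24e-09), against Gata2 with -0.67 ± 0.22 (SE, limma adjusted p = 0.0159) and Myct1 with -0.81 ± 0.23 (SE, limma adjusted p = 0.00716). Heat shock genes gave 0 rose and 2 fell of 9 (0 and 3 rescaled), with Hsph1 at -0.87 ± 0.23 (SE, limma adjusted p = 0.00373). Of MHC class I and peptide loading genes 2 rose and 0 fell of 14 (1 and 5 rescaled), of immunoglobulin and plasma cell genes 1 rose and 3 fell of 12 (1 and 9 rescaled) and of dendritic cell genes 0 rose and 0 fell of 3 (0 and 3 rescaled).

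The week 11 values were set beside the other weeks of the same mice. The lowest week 11 value of each of 11 genes chosen for their large rise (Retnla, Bcl2l15, Chil3, Il1r2, Lipg, Crispld2, Cd14, Mmp8, Lcn2, Cd177 and Ngp) was not reached in any library of these mice from week 0 to week 6. Other neutrophil genes were at that level before treatment: it was reached from week 0 to week 6 in 7 libraries for Camp, which encodes the antimicrobial peptide cathelicidin, 6 for the lactoferrin gene Ltf, 3 for S100a9 and 1 for S100a8. Among all 82 libraries of the other weeks it was reached in 0 for Il1r2, 1 for Retnla, 2 for Chil3, 9 for Ngp, 11 for Cd177, 27 for Camp and 29 for Ltf. The median of Chil3 was 371 TPM at week 6, 60.6 at week 8, 107 at week 10, 2494 at week 11 and 951 at week 12. That of Il1r2 was 85.3 TPM at week 6, 9.64 at week 8, 19.0 at week 10, 459.6 at week 11 and 129 at week 12. Week 12 was read in 4 mice (502, 507, 508 and 512), so that its median is over fewer animals. For both genes it lay below week 11 and above week 10. Ngp had a median of 484 TPM at week 6, 66.6 at week 8, 119 at week 10, 1202 at week 11 and 576 at week 12. Retnla had 3.31 TPM at week 6, 0.237 at week 8, 0.626 at week 10, 80.7 at week 11 and 3.92 at week 12. Haemoglobin in those 4 mice was between 11.2 and 34.2% at week 12.

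With week 12 in place of week 11, in the 4 TKI mice and the CML mice with both weeks, 3380 genes passed in the TKI step, of which 1003 were higher, and 1255 in the difference. Most calls of that step were lower, unlike those of week 11, and Hbb-bs had a step of 0.0946 (limma adjusted p = 0.748). The TKI mice read at week 12 are all of batch 2022_A. The CML mice read then (480, 487, 541 and 542) are of 2021_E or 2022_B, and CML mouse 484 has no week 12 library. Cohort and batch therefore cannot be told apart in the week 12 difference. Over all weeks of the CML mice (94 libraries) the lowest week 11 value of Il1r2 in TKI mice, 337 TPM, was reached in 1 library, which held 403 TPM. In 57 libraries of control mice Il1r2 ran from 1.72 to 101 TPM and Chil3 from 0.965 to 140.0 TPM. The week 11 floor of Chil3 was reached in 0 CML libraries and that of Ngp in 7.

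**Figure D5:**
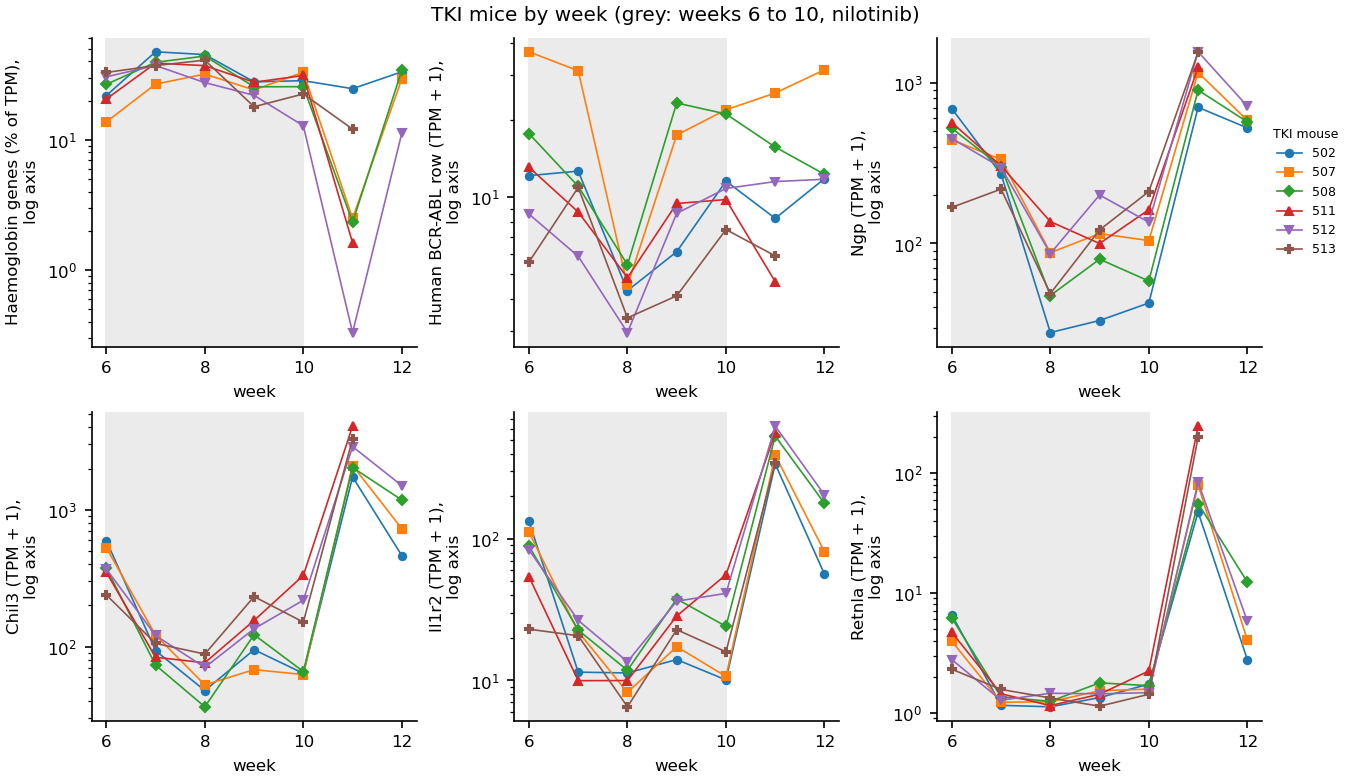
Weekly values of the 6 TKI mice from week 6 to week 12 (1 line per mouse, log axes; grey marks the weeks of nilotinib): haemoglobin as percent of TPM, then the human BCR-ABL row, Ngp, Chil3, Il1r2 and Retnla in TPM. Il1r2 has its highest median at week 11 (459.6 TPM, against 19.0 at week 10), while the BCR-ABL row shows no such peak (median 8.89 TPM, against 10.2).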

How the data were processed

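RNA was extracted from whole blood, depleted of ribosomal RNA and sequenced as reverse stranded libraries from samples with an RNA integrity number above 4, per the labels' protocols. TPM per gene were deposited by the authors for 14605 genes and 298 libraries. The submitters' processing notes name STAR, Salmon and GRCm39, with no versions. TPM keeps no depth, so depth is unknown and no counting error can be given. Symbols were matched to GENCODE M39 for 14537 genes.

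From the TPM the within-mouse change of log2(TPM + 1), week 11 minus week 10, was computed for TKI and CML mice. The pseudocount of 1 understates changes of low genes. Genes with a mean of at least 1 TPM (10435) were fitted with limma 3.58.1 (lmFit, eBayes with trend; residual degrees of freedom 9, prior 15.1 as deposited and 3.94 rescaled) in R 4.3.3, 1 term per cohort and Benjamini-Hochberg adjustment over all genes at 0.05. Python 3.11.15, pandas 2.3.3, numpy 2.4.6 and matplotlib 3.10.9 were used for tables and figures. Rescaled values divide each library by a median-ratio size factor. Libraries of a mouse number come from 1 animal, so the mouse is the block. The mean correlation of a mouse's 2 libraries, as deviations from their cohort and week, was 0.454 (0.152 to 0.855). Between mice it was -0.0871. Such deviations sum to 0 over the mice, so the value between mice is tied to the first and is no independent contrast. The fit was tested on simulated data. The mice, comparisons, 32 gene lists and tests were chosen with earlier results of these data known, and the repeat with TKI mice 502 and 513 was added after their haemoglobin was seen. Named genes are, in the TKI step and in its difference from CML mice on both scales, the 10 largest rises and falls among called genes with a mean of at least 5 TPM and, in the TKI step, the same sign in at least 5 of 6 mice, without unnamed models and pseudogenes. Each list of at least 3 tested members adds the 2 to 4 with the lowest p, and the human BCR-ABL row, Bcr and Abl1 are always named. Defining cell type markers and members quoted for their role (Mpo, Elane, Kit, Flt3, Camp, Ltf, Bcl2l1, Ccnd1, Ccnd2 and Isg15) are named outside that rule, with values known. Other weeks, pseudocounts, filters, totals without red cell and small RNA genes, batch and sex terms and leaving out each mouse were tried as alternatives.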

Additional observations from a re-analysis of the deposited data

Results flagged for a closer look

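The step differed between cohorts in 5151 genes by a test of the difference itself. Among CML mice, mouse 484 stood far from the others in the step of Retnla (1.81, against -0.44 to -0.03 in the other 4) and of Bcl2l15 (1.63, against -0.24 to 0.21). The median step over all genes was 0.0734 in CML mouse 480, against -0.48 to -0.32 in the other 4. In all 46 groups were tested for an outlying mouse, and chance flags about 1 group in 20.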

How the results depend on the processing

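In TKI mice the median steps of the secondary granule, primary granule and mature neutrophil lists kept their sign under every alternative run (lowest 2.11, 0.0519 and 1.93), but counts of calls moved. The TKI step had 4393 calls and the difference 5151. With a mean of at least 5 TPM they were 2871 and 3247, out of fewer genes tested. Without the replicate block they were 2703 and 3255, and the CML step had 0 calls with and without it. With week 12 in place of week 11, where TKI and CML mice share no batch, the difference had 1255 calls. With TKI mice 502 and 513 only (fewer samples) they were 1324 and 1061, and 1521 and 550 rescaled. Robust eBayes gave 1 call in the CML step. Leaving out each mouse gave 3264 to 6002 calls in the TKI step, 3873 to 7005 in the difference and 0 to 1 in the CML step. A batch term left 4746 calls in the difference and a sex term 4622. Without red cell and small RNA genes in the total there were 4789 calls in the TKI step (2534 higher) and 3499 in the difference (2303 higher).

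The transgene step of TKI mice was -0.59 rescaled (exact p = 0.03125) and 0.0536 with week 9 in place of week 10, where the difference was -0.48 (exact permutation p = 0.223). Leaving out each mouse, it ran from -0.45 to -0.19 in TKI mice, from 0.55 to 0.78 in CML mice and from -1.11 to -0.81 in the difference. Over the named genes and alternatives 2512 comparisons kept direction and call, 177 lost the call, 20 gained it and 28 turned. Of the list medians 754 moved by less than the spread between mice and 43 by more. Named genes that turned with week 12 were Hbb-bs (0.0946), Hbb-bt (0.253), Hba-a2 (0.0153), Hba-a1 (0.0387), Car2 (0.282), Bpgm (0.0107), Ube2l6 (0.310), Ube2c (0.186), Abl1 (-0.526) and mt-Nd3 (-0.512) in the TKI step. In the difference, where TKI and CML mice share no batch at week 12, they were Hbb-bt (0.00756), Ube2l6 (0.103) and the BCR-ABL row (0.0334). With mice 502 and 513 only, Abl1 (-0.447, difference -0.0708), Tap2 (-0.171) and mt-Nd3 (-0.406) turned, and rescaled Abl1 (-0.199, difference -0.201), Hbq1b (0.0520), Ube2c (0.0273) and mt-Nd3 (-0.131). Abl1 also turned when rescaled (-0.124, difference -0.132), without red cell and small RNA genes (-0.146) and without mouse 511 (-0.00953). Leaving out each mouse, Abl1 ran from -0.00953 to 0.292 and mt-Nd3 from -0.166 (without mouse 507) to 0.649. The cause of these turns was not tested.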
